A study of Mus musculus with 10 samples.

Results

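The BCL2 family decides whether the outer membrane of the mitochondrion stays closed or is opened for apoptosis. The 10 family genes described here were set by name: the guardians Bcl2, Bcl2l1 and Mcl1, the effectors Bax and Bak1, and the BH3-only genes Bid, Bad, Bcl2l11, Bbc3 and Pmaip1. They are 10 of the 55487 genes in the RNA-seq tables of the study, and each was found by the Ensembl gene that carries its symbol in GENCODE vM21. The study mapped R-loops, stretches where RNA pairs with one strand of DNA, in E14 mouse embryonic stem cells, an established line. Its 10 samples fall into 6 groups, and the 7 samples of R-loop mapping were not analysed here. The RNA-seq group, with 3 replicates, was untreated beyond its culture medium, which for every group held 15% serum, LIF, 3 µM of a GSK inhibitor and 1 µM of an inhibitor of MEK1/2. No genotype other than that of the line was given, and nothing said whether the replicates came from separate cultures, so their spread may be technical. With 1 condition there was no contrast between conditions, and the results below compare the members with each other within each library.

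Guardian proteins bind and hold the other family members in check, effectors form the pores that release cytochrome c, and BH3-only proteins carry stress signals by binding guardians and, for some of them, by activating effectors directly. What binds is the BH3 segment, a short helix present in all these classes. Mouse embryonic stem cells are known to die readily after DNA damage, and removal of Mcl1 is lethal to the mouse embryo around implantation. MEK and ERK signalling is known to lower BIM, the protein of Bcl2l11, at the protein level, and that signal is blocked in this medium.

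The BH3 core is shown for the members because it is the feature that all classes of the family share. Coding sequences of GENCODE vM21 were searched for codons of leucine, any 3 residues, then glycine, alanine or serine, then aspartate. A match of this kind was present in 33.6% of 21782 genes, so it does not by itself mark a family member. Each of the 9 members shown held exactly 1 match, each inside a single exon. Pmaip1 held 2 matches, both with glycine, and its sequence is not printed here. In the lines below, which read 5′ to 3′ on the coding strand of GRCm38, capitals mark the codon of leucine and the codon pair for the small residue and aspartate.
Mcl1: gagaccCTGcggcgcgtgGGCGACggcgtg
Bcl2l1: caagcgCTGagagaggcaGGCGATgagttt
Bcl2: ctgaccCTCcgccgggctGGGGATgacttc
Bax: gagtgtCTCcggcgaattGGAGATgaactg
Bak1: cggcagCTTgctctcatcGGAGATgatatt
Bid: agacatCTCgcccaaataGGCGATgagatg
Bcl2l11: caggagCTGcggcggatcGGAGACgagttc
Bbc3: gcccagCTGcggcggatgGCGGACgacctc
Bad: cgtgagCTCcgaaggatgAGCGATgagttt

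All guardians and effectors, and of the BH3-only genes shown Bid and Bcl2l11, used glycine at the small residue, a stricter form found in 13.2% of the genes searched. Bbc3 had alanine there and Bad had serine. The guardian segments lie at chr3:95659430-95659459 on the plus strand for Mcl1, chr2:152829700-152829729 on the minus strand for Bcl2l1 and chr1:106712578-106712607 on the minus strand for Bcl2. Those of the effectors are at chr7:45466000-45466029 for Bax and chr17:27022534-27022563 for Bak1, both on the minus strand. Among BH3-only genes the positions are chr6:120897292-120897321 (minus) for Bid, chr2:128147144-128147173 (plus) for Bcl2l11, chr7:16313767-16313796 (plus) for Bbc3 and chr19:6950786-6950815 (plus) for Bad. The segment falls in exon 1 of Mcl1 and Bcl2, exon 2 of Bcl2l1, exon 4 of Bak1 and Bid, and exon 3 of Bax, Bcl2l11, Bbc3 and Bad.

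Sequencing depth was 11420425 estimated counts for replicate 1, 6467405 for replicate 2 and 5787357 for replicate 3. TPM is a level scaled by gene length and to the same total in each library, and it is the unit for comparing genes. Genes with an effective length under 100 nt held 60.3%, 65.8% and 63.9% of all TPM in replicates 1, 2 and 3, so the TPM of every other gene is listed lower than it would be without them, by a factor of 2.52, 2.92 and 2.77. Ratios between genes of a library do not depend on this factor, but a threshold in TPM does. CPM is a gene's count scaled to the library's total without regard to length, and it serves to compare a gene with itself. The labelled cell type was checked first: all 7 stem cell markers had a mean TPM of at least 1, with summed levels of 622, 519 and 452 TPM. Of 7 fibroblast markers, 2 did (Fn1 and Thy1), Col3a1 and Postn had 0 counts, and the list summed to 118, 81.8 and 29.6 TPM. Nearly all of that sum was Fn1, with 113.69, 77.5 and 27.77 TPM in replicates 1, 2 and 3. No endoderm marker (0 of 5; summed 0.4 to 1.09 TPM) and no blood marker (0 of 5; 0.1 to 0.64 TPM) reached 1 TPM. With TPM rescaled without the short genes, Pdgfrb of the fibroblast list and Gata4 of the endoderm list also reached 1 TPM. Replicate 3 was lowest in each of these lists in TPM, and their part in the results below was not tested.

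Of the 10 members, 9 had a mean TPM of at least 1, the level called expressed here. Among all 55487 genes 19.8% reached it, and 44.1% of protein-coding genes. Bcl2 was the exception. Without the short genes, 27.5% of the 47980 longer genes of every type reached 1 TPM. The share of protein-coding genes was not computed on that scale. Leaving out the short genes only raises TPM, so the 9 members could not fall below 1 TPM, and Bcl2 stayed under it at 0.0442 TPM. The median of the members' mean TPM was 3.19, beside 0.457 for all protein-coding genes and 5.73 for the 9683 protein-coding genes that were expressed. Of the 9 expressed members, 4 were above that last median (Bax, Mcl1, Bid and Bak1) and 5 were below it.

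**Figure D1:**
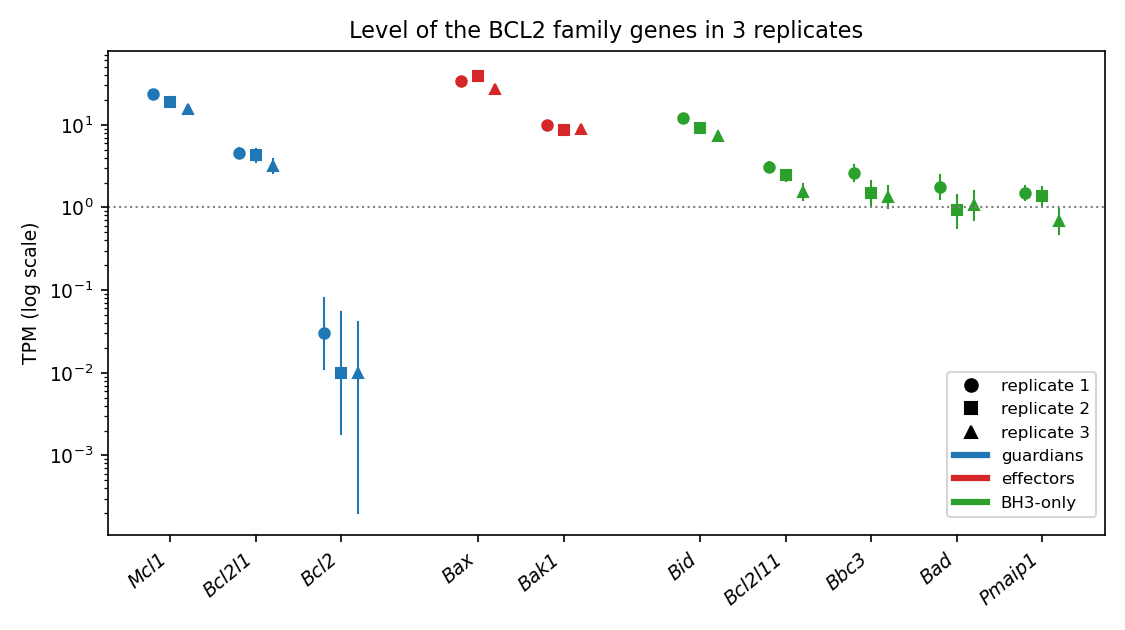
TPM (vertical log axis) of each of the 10 genes in replicates 1, 2 and 3 (circle, square, triangle), coloured by class, with exact 95% Poisson intervals from the counts as lines; the dotted line is 1 TPM. Bax is highest at 27 to 39.1 TPM, Bcl2 lies at or below 0.03 TPM in every replicate, and the other 8 genes lie between 0.69 and 23.4 TPM.

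Among the guardians, Mcl1 dominated. Mcl1 encodes a short-lived guardian that is made and destroyed continuously (ENSMUSG00000038612, GRCm38 chromosome 3, 95658788 to 95663176, plus strand). It had 23.4, 18.9 and 15.5 TPM in replicates 1, 2 and 3, or 19.3 ± 3.92 TPM (SD, n = 3), from 2077, 1173 and 880 counts. That level was at the 84.3 percentile of the expressed protein-coding genes. Bcl2l1 encodes BCL-XL, the guardian with a long-lived protein, and a shorter spliced form of the gene with opposite effect (ENSMUSG00000007659, chromosome 2, 152780668 to 152831728, minus strand). Its 9 listed transcripts were not separated in these gene-level values. Bcl2l1 had 4.59, 4.25 and 3.18 TPM, or 4.01 ± 0.736 TPM (SD, n = 3), at the 37.3 percentile of the expressed protein-coding genes. Every Mcl1 value was above every Bcl2l1 value.

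The Mcl1 level exceeded the Bcl2l1 level 5.09-fold, 4.44-fold and 4.88-fold in replicates 1, 2 and 3. The mean log2 ratio of TPM was 2.26 ± 0.10 (SD, n = 3), with the same sign in 3 of 3 replicates. An exact two-sided sign-flip permutation test over the 3 replicates gave p = 0.25, the smallest this design allows, so no comparison of a pair of genes here can pass a threshold of 0.05. In CPM, without length scaling, the log2 ratio was 3.05 ± 0.12 (SD, n = 3).

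Bcl2, the founding guardian of the family, was close to the limit of detection (ENSMUSG00000057329, chromosome 1, 106538178 to 106714274, minus strand). It had 5, 2 and 1 counts, listed as 0.03, 0.01 and 0.01 TPM. A floor of 3 counts corresponds to 0.0207, 0.0224 and 0.0224 TPM of this gene, so Bcl2 lay above the floor in replicate 1 and below it in the others. In replicate 1, where the exact 95% Poisson interval of the 5 counts ran from 1.62 to 11.7, Mcl1 exceeded Bcl2 676-fold (exact binomial 95% interval 289 to 2083). The ratio was 1263 (349 to 10442) in replicate 2 and 2080 (372 to 82256) in replicate 3. These intervals overlap widely and cover counting error only, since copies made by PCR are not independent molecules. Bcl2l1 exceeded Bcl2 133-fold in replicate 1 (interval 56.1 to 412), 284-fold in replicate 2 (77.2 to 2370) and 426-fold in replicate 3 (75 to 16981).

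Both effectors were expressed, Bax far more than Bak1. Bax, which moves from the cytosol to mitochondria when activated, had the highest level among the members (ENSMUSG00000003873, chromosome 7, 45461697 to 45466898, minus strand). It had 34.1, 39.1 and 27 TPM, or 33.4 ± 6.11 TPM (SD, n = 3), at the 91.4 percentile of the expressed protein-coding genes. Bak1, whose protein resides on the outer membrane, had 9.89, 8.62 and 8.99 TPM, or 9.17 ± 0.653 TPM (SD, n = 3), at the 65.8 percentile (ENSMUSG00000057789, chromosome 17, 27019810 to 27029009, minus strand). The lowest Bax value was above the highest Bak1 value. Bax exceeded Bak1 3.44-fold, 4.54-fold and 3.00-fold in replicates 1, 2 and 3, a mean log2 ratio of TPM of 1.85 ± 0.30 (SD, n = 3) with 3 of 3 replicates in the same direction (exact two-sided sign-flip permutation p = 0.25). Read counts alone would show a smaller gap, a log2 ratio of CPM of 0.56 ± 0.295 (SD, n = 3), because Bax has an effective length of 722 to 765 nt and Bak1 of 1783 to 1834 nt.

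The BH3-only genes were all expressed but, apart from Bid, were listed near the threshold. Without the short genes the mean TPM was 6.44 for Bcl2l11, 4.9 for Bbc3, 3.39 for Bad and 3.22 for Pmaip1. Bid, which links death receptors to mitochondria after its cleavage by caspase 8, had 11.9, 9.26 and 7.40 TPM, or 9.53 ± 2.28 TPM (SD, n = 3), at the 67 percentile (ENSMUSG00000004446, chromosome 6, 120891930 to 120916853, minus strand). Bcl2l11, which encodes BIM, had 3.12, 2.46 and 1.54 TPM, or 2.37 ± 0.794 TPM (SD, n = 3) (ENSMUSG00000027381, chromosome 2, 128126038 to 128162547, plus strand). The lowest Bid value was above the highest value of every other BH3-only gene.

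Bbc3 and Pmaip1 are known targets of p53, encoding PUMA and NOXA. Bbc3 had 2.61, 1.5 and 1.35 TPM, or 1.82 ± 0.688 TPM (SD, n = 3) (ENSMUSG00000002083, chromosome 7, 16308393 to 16318205, plus strand). Pmaip1, whose product binds MCL1 above all, had 1.49, 1.37 and 0.69 TPM, or 1.18 ± 0.431 TPM (SD, n = 3) (ENSMUSG00000024521, chromosome 18, 66458533 to 66465565, plus strand). In replicate 3 Pmaip1 was listed below 1 TPM, from 34 counts.

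Bad, which is kept inactive by phosphorylation under growth factor signalling and binds BCL2 and BCL-XL rather than MCL1, had 1.78, 0.92 and 1.08 TPM, or 1.26 ± 0.457 TPM (SD, n = 3) (ENSMUSG00000024959, chromosome 19, 6941861 to 6951899, plus strand). Its value in replicate 2, from 21 counts, was also listed below 1 TPM. The values of Bbc3, Bad and Pmaip1 overlapped one another, and by mean TPM they were at the 13.5, 4.93 and 3.55 percentile of the expressed protein-coding genes.

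In order of mean TPM the members ran Bax, Mcl1, Bid, Bak1, Bcl2l1, Bcl2l11, Bbc3, Bad, Pmaip1 and Bcl2. Neighbours in this order were called apart where their log2 ratio had the same sign in 3 replicates and a mean above its SD. Bid and Bak1 were not apart, at a mean log2 ratio of 0.03 ± 0.28 (SD, n = 3), and neither were Bad and Pmaip1, at 0.11 ± 0.63 (SD, n = 3). The closest neighbours that did pass were Bcl2l11 and Bbc3, at 0.39 ± 0.29 (SD, n = 3). The step from Mcl1 to Bid varied least between replicates, 1.02 ± 0.05 (SD, n = 3), while Bax led Mcl1 by 0.80 ± 0.25 (SD, n = 3).

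Guardians were then set against the other classes. The 3 guardians summed to 28, 23.1 and 18.7 TPM, the 2 effectors to 44, 47.8 and 36 TPM, and the 5 BH3-only genes to 20.9, 15.5 and 12.1 TPM in replicates 1, 2 and 3. Effectors were above guardians in each replicate, 1.57-fold, 2.06-fold and 1.92-fold. The mean log2 ratio of guardians to effectors was -0.88 ± 0.20 (SD, n = 3). This direction rests on Bax and on length scaling: without Bax the ratio was 1.33 ± 0.24, in favour of guardians, and in CPM it was 0.72 ± 0.25 (SD, n = 3), also in favour of guardians. Without Mcl1 the remaining guardians were below the effectors by far, at -3.41 ± 0.14 (SD, n = 3).

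Against BH3-only genes the guardians were ahead. Their summed TPM was 1.34-fold, 1.49-fold and 1.55-fold that of the 5 BH3-only genes, a mean log2 ratio of 0.54 ± 0.11 (SD, n = 3). With the genes usually classed as direct activators, Bid, Bcl2l11 and Bbc3, the log2 ratio was 0.78 ± 0.10 (SD, n = 3), and with those usually classed as sensitizers, Bad and Pmaip1, it was 3.28 ± 0.16 (SD, n = 3). Here too 1 gene on each side set the value. Without Mcl1 the ratio turned to -1.99 ± 0.17, and without Bid it rose to 1.84 ± 0.19 (SD, n = 3). No p is given for these class ratios, because the members were chosen by name and are not replicates of a class.

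As shares of the summed TPM of the 10 genes, guardians held 28.3% ± 1.69, effectors 52.2% ± 4.24 and BH3-only genes 19.5% ± 2.62 (SD, n = 3). Bax alone held 40.8% ± 4.32, Mcl1 23.4% ± 1.65, Bid 11.6% ± 1.14 and Bak1 11.4% ± 1.85 (SD, n = 3), while Bcl2 held 0.02% ± 0.011. These are shares of RNA, and protein was not measured.

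**Figure D2:**
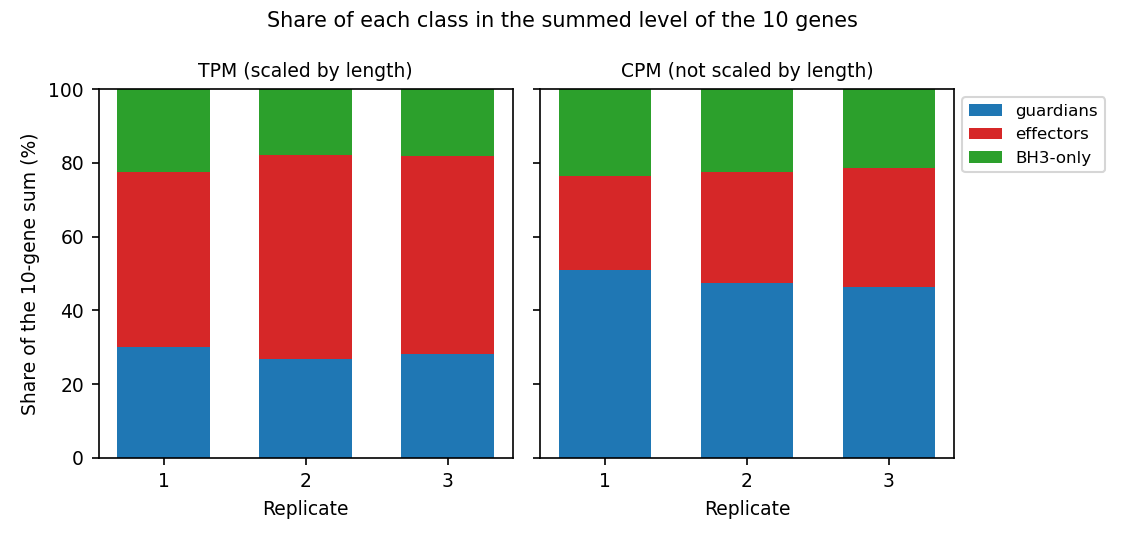
Share (%) of each class in the summed level of the 10 genes in each replicate, from TPM on the left and from CPM on the right; bars stack to the whole. Effectors take the largest share in TPM (47.3% to 55.3%) and guardians in CPM (46.2% to 51%), while BH3-only genes take 18% to 23.5% in both.

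Variation between the replicates was tested for every gene with edgeR's goodness-of-fit test, which asks whether counts vary more than those of genes of like abundance. Of 12577 genes tested, 1.84% were called at an adjusted p below 0.05. Fn1 of the fibroblast list was called (edgeR adjusted p = 0.0125), and it was lowest in replicate 3 in both CPM and TPM. Among members, 9 passed the filter on low counts, Bcl2 did not, and 0 were called, with 0 also at an unadjusted p under 0.05. Every adjusted p (edgeR, Benjamini-Hochberg) of these 9 was 1. Without replicate 3, Bax alone had an unadjusted p under 0.05, at 0.00355 (adjusted p = 0.315 in edgeR's test); a p above the threshold does not show that a gene was constant.

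Bcl2l11 departed most in replicate 3. Its TMM-scaled CPM, a CPM corrected for composition, was 23.5, 25.3 and 15.1 in replicates 1, 2 and 3 (unadjusted p = 0.11). Pmaip1 was also lowest there, with 8.46, 9.79 and 6.41, whereas Bak1 was highest there, with 41.2, 44 and 57.8. Bax was lowest in replicate 1, with 55.9, 82.1 and 73.8. The steadiest members were Mcl1, with 174, 177 and 166, Bid, with 47.5, 49.9 and 52.4, and Bcl2l1, with 19.8, 20.6 and 22. The median deviation of the 9 members from their own means was -0.07, 0 and 0.08 on the log2 scale in replicates 1, 2 and 3, beside values from 0.002 to 0.008 for all genes tested.

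The spread in TPM was wider than that in CPM for most members. TPM was highest in replicate 1 for 9 of the 10 genes, whereas CPM was highest there for 2. Bcl2, from 5, 2 and 1 estimated counts, is included both times. Mcl1, the other gene in CPM, had 181.9 in replicate 1 against 181.4 in replicate 2. The share of all genes highest in replicate 1 was not computed, so this order is not shown to be particular to the members. A gene with an effective length of 1 kb and 1 CPM corresponded to 0.421, 0.341 and 0.305 TPM in replicates 1, 2 and 3, so the same share of reads was listed at a lower TPM in replicate 3. For Bid the SD on the log2 scale was 0.35 in TPM, 0.05 in CPM and 0.09 in effective length, which also enters TPM. For Bcl2l1 these SDs were 0.28, 0.03 and 0.10.

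The effective length itself moved between libraries, most for Bad and Bbc3. The length listed for a gene is an average over its transcripts, weighted by their estimated abundance. For Bad it was 806, 1208 and 1268 nt, a 1.57-fold range, and for Bbc3 1144, 1301 and 1681 nt, a 1.47-fold range. Bad had 3.41, 3.25 and 4.49 CPM, and its TPM was highest where its length was shortest. Bcl2l11, with 8 listed transcripts, and Bcl2 each ranged 1.32-fold in length. Bax, Bak1 and Pmaip1 stayed within 1.06-fold. Levels of Bad and Bbc3 therefore depend on how 39, 21 and 26 and 81, 37 and 43 counts were divided among transcripts.

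**Figure D3:**
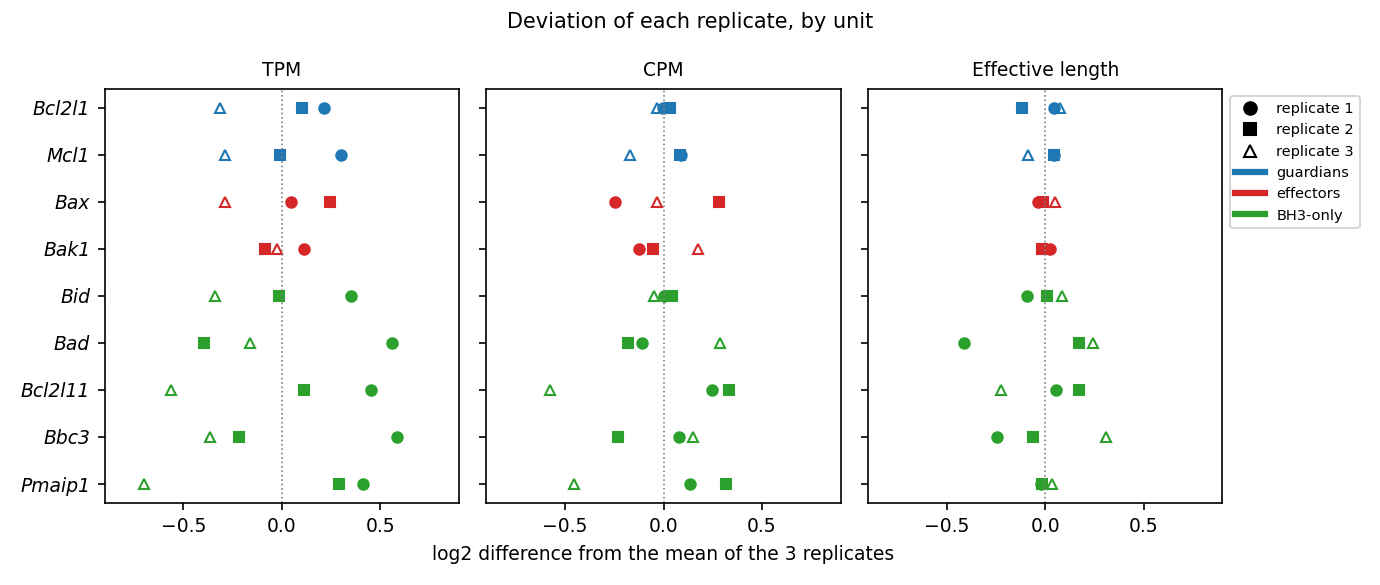
Departure of single replicates from a gene's own mean, on the log2 scale (horizontal axis), in TPM, CPM and effective length for the 9 members other than Bcl2, coloured by class; markers stand for replicates 1, 2 and 3 (circle, square, open triangle). Bid and Bcl2l1 spread in TPM but not in CPM, Bad and Bbc3 spread in effective length, and Bcl2l11 and Pmaip1 lie lowest in replicate 3 in both TPM and CPM.

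Some members overlap other genes, and the strand setting of the counting is not given in the sources used here. The overlaps below are between whole gene spans, introns included, and overlap of exons was not examined. Bid overlaps Bcl2l13, on the opposite strand, by 913 nt, and Bcl2l13 had 20.9, 16.1 and 19.9 TPM. On the same strand Bid overlaps Gm44260 by 2094 nt, which had 72, 29 and 30 counts beside 567, 331 and 278 for Bid, all whole. Reads there could belong to either gene under any strand setting, and how many did was not tested. Bak1 overlaps both records of Ggnbp1 on the opposite strand, whose highest level was 1.95 TPM. Bad overlaps Gpr137, on the opposite strand, by 620 nt, and Gpr137 had 3.52, 2.26 and 1.76 TPM, above Bad in each replicate. Reads in the overlaps between strands could be counted for either gene if strand was not used. How far the low level of Bad depends on such reads was not tested. The counts of Bad (39, 21 and 26) and Gpr137 (118, 62 and 44) were whole in each replicate, as were those of Bcl2l13. The 391.83 counts of Bax in replicate 3 were not whole, and Gm45808, which overlaps Bax on the same strand, had 4.15 counts in that replicate. Mcl1, Bcl2l1, Bcl2l11, Bbc3 and Pmaip1 overlap no other gene of the tables.

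Windows of 250 bases before each annotated start were taken from RefSeq (GRCm38.p6) to show what the start regions look like. CG dinucleotides, a common feature of promoters, were counted in the genome sequence, which does not depend on the cell type. Among 32841 such windows the median held 6 CG dinucleotides. Of the 15 windows that 9 members have, 14 held more than that; the exception is an internal start of Bcl2l1 with 0. The hexamer GGGCGG, on either strand, was in 10 of the 15 windows and in 32.8% of all windows, and TATAAA, on either strand, in 0 of the 15 and in 12.4% of all windows. The windows of the highest and the lowest member, Bax and Bcl2, are printed with each CG in capitals.
Bax, chr7:45466899-45467148, minus strand: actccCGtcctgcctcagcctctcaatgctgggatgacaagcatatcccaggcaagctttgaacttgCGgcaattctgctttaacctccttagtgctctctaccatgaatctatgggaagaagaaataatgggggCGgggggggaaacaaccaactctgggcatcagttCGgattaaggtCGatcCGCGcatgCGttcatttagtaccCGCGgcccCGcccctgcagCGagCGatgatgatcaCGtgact
Bcl2, chr1:106714291-106714540, minus strand: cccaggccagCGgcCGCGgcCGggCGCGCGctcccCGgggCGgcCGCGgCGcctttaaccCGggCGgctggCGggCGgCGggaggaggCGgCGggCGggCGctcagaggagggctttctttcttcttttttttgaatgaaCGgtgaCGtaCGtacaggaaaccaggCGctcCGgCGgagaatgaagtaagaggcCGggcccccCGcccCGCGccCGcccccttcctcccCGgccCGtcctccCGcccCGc
The Bax window holds 14 CG dinucleotides, a number reached by 29.4% of all windows, and the Bcl2 window 36, reached by 2.58%. Mcl1 has 26 in its window and Bak1 has 8. Bcl2, with the lowest level among the members, thus had more CG dinucleotides in its window than Bax, with the highest among them. DNA methylation was not analysed here.

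The rest of the pathway was read from 5 fixed lists of 52 genes, of which 39 had a mean TPM of at least 1 and 13 did not. Of all protein-coding genes, 44.1% reached that level. Without the short genes 43 of the 52 did (82.7%). Bok, Casp8, Fadd and Dffb were the additional ones, so for these 4 the call depends on the scaling. Of the 47980 longer genes of every type, coding or not, 27.5% reached 1 TPM on that scale. The share of protein-coding genes was not computed there, so 27.5% and 44.1% are shares of different sets. The median of the 52 genes was 4.11 TPM, beside 0.457 TPM for all protein-coding genes. Among 13 other genes of the family, 6 were expressed, close to the share of all protein-coding genes, with a list median of 0.797 TPM. Bnip3 and Bnip3l, which act in the removal of mitochondria, had 40.2 ± 12.9 and 33.1 ± 8.35 TPM (SD, n = 3), and Bcl2l13 had 18.96 ± 2.5 TPM (SD, n = 3). Of the additional guardians, Bcl2l2, encoding BCL-W, had 2.54 ± 0.857 TPM (SD, n = 3), while Bcl2l10 and the A1 genes Bcl2a1a, Bcl2a1b and Bcl2a1d had 0 counts in every replicate. The A1 genes are near-identical copies, so reads from them could be split between records. Among further BH3-only genes, Bmf had 1.65 ± 0.382 TPM (SD, n = 3), and Bik and Hrk were below 1 TPM at 0.223 ± 0.136 and 0.257 ± 0.0902 (SD, n = 3). Bok, a pore former related to Bax, was listed below 1 TPM, at 0.797 ± 0.329, and had 2.21 ± 1.05 TPM without the short genes (SD, n = 3).

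Downstream of the pores, 10 of 13 genes of the apoptosome and caspase list were expressed, with a list median of 2.15 TPM. Cycs, which encodes cytochrome c, had 10.2 ± 2.42 TPM, Apaf1, its partner in the apoptosome, 3.62 ± 1.36 TPM, and the initiator Casp9 3.06 ± 0.746 TPM (SD, n = 3). Casp8 and Fadd, which act at death receptors and upstream of Bid, were listed below 1 TPM at 0.507 ± 0.232 and 0.597 ± 0.0945, and had 1.37 ± 0.592 and 1.63 ± 0.246 TPM without the short genes (SD, n = 3). Of 8 inhibitors of apoptosis and their antagonists, with a median of 7.73 TPM, 7 were expressed, among them Xiap at 5.54 ± 1.37 TPM, and Diablo and Htra2, whose products relieve that inhibition, at 9.92 ± 1.52 and 10.8 ± 2.15 TPM (SD, n = 3). Birc5 was highest of these at 27.3 ± 4.08 TPM (SD, n = 3); its product also serves cell division.

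All 8 genes whose products control MCL1 turnover or bind BAX and BAK were expressed, with a median of 51.3 TPM. Usp9x, a deubiquitinase that stabilises MCL1, had 81.6 ± 21.4 TPM, and Huwe1, a ligase that marks it for destruction, 35.1 ± 13.9 TPM (SD, n = 3). Fbxw7 and Btrc were the lowest of the list, at 2.54 ± 0.576 and 6.05 ± 1.42 TPM (SD, n = 3). Vdac2, the channel protein that holds BAK at the outer membrane, had 49.4 ± 7.26 TPM (SD, n = 3). Of 10 upstream regulators, with a median of 7.48 TPM, 8 were expressed, with Trp53 at 25.7 ± 9.67 TPM, its inhibitors Mdm2 and Mdm4 at 12.6 ± 2.01 and 25.8 ± 7.41 TPM, and the relatives Trp63 and Trp73 below 1 TPM at 0.0267 ± 0.0115 and 0.23 ± 0.149 (SD, n = 3). Trp53 thus had a higher level than its targets Bbc3 and Pmaip1 in each replicate. Foxo1 and Foxo3, which can activate Bcl2l11, had 35.3, 31.5 and 14.7 and 106, 94.6 and 70.8 TMM-scaled CPM in replicates 1, 2 and 3. Neither was called as varying (edgeR adjusted p = 0.0679 for Foxo1 and 1 for Foxo3). With each library's fitted trend over gene length as an offset, edgeR's adjusted p for Foxo1 was 0.324.

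**Figure D4:**
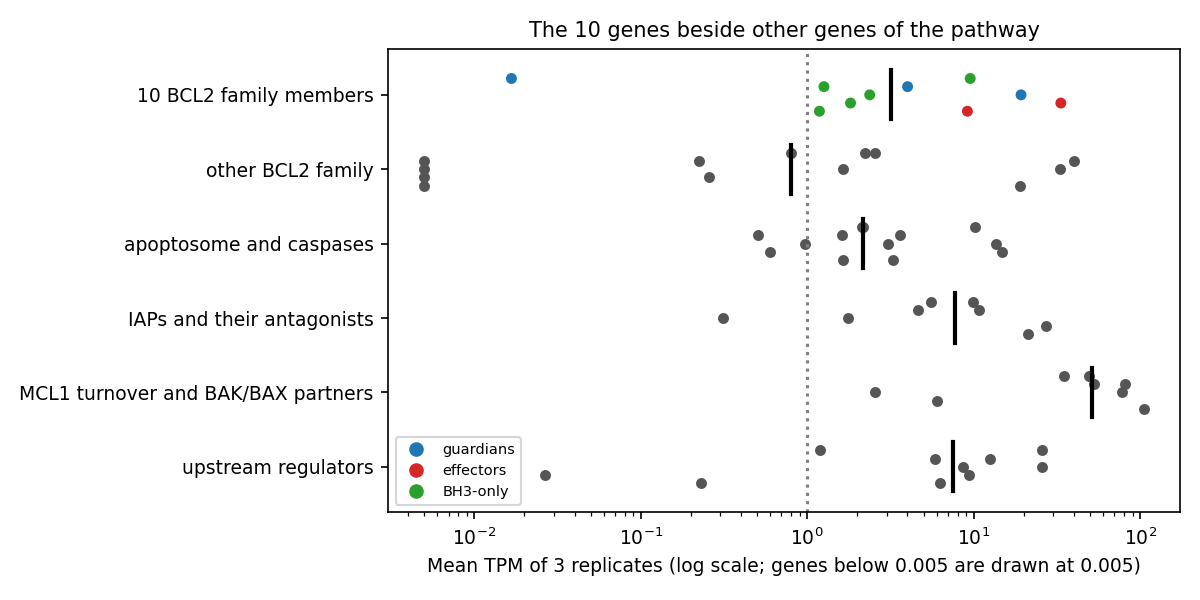
Mean TPM over 3 replicates (horizontal log axis) of the 10 members, coloured by class, and of the genes of 5 pathway lists in grey; each point is a gene, black bars are list medians and the dotted line is 1 TPM. The members' median is 3.19 TPM, that of the list of MCL1 turnover and BAK/BAX partners 51.3 TPM, and that of other BCL2 family genes 0.797 TPM.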

How the data were processed

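RNA-seq libraries from 3 replicates of E14 cells were read from 1 gene table each. Per the labels' protocols, RNA was depleted of rRNA and made into directional libraries. STAR, RSEM and mm10 are named in the submitters' processing notes, with no version; the annotation release and strand setting are not given in the sources used here. Per the file headers, each gene has an expected count (an estimated count, not normalized), TPM and FPKM, all deposited by the authors; FPKM was not used. The deposited tables also list an effective length per gene.

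Class and pair ratios were computed from TPM in each library. Variability was tested with edgeR 4.0.16 in R 4.3.3 (goodness of fit under the trended dispersion, intercept only, TMM, filterByExpr, counts rounded, Benjamini-Hochberg over all genes), and checked on simulated data. Of 55487 IDs, 55227 matched GENCODE vM21 (GRCm38); of 86 listed symbols, Septin4 was matched through a synonym, and for Ddit3 the record with more counts was used. Named genes are the members, the listed genes and, chosen after their values were seen, genes overlapping members. Members and lists were chosen with earlier results of these data known. Alternatives changed the unit, pseudocount, members, threshold, normalization (DESeq2 1.42.0 size factors), filter and replicates. Depth was 5787357 to 11420425 counts; 3 counts are 0.263 to 0.518 CPM.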

Additional observations from a re-analysis of the deposited data

How the results depend on the processing

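The 8 results were recomputed under 53 alternatives, 46 planned and 7 chosen after seeing the data. The 7 were 1 effective length per gene for the 4 ratios, leaving out Bax or Bid, and pathway genes without short genes. Of the 53, 37 stayed within the allowed spread or direction, 13 moved the value and 3 reversed. For the ratios of gene pairs only the direction was judged. The 37 thus include the log2 ratio of Bax over Bak1 at 0.564 in CPM, against 1.851 in TPM. They also include Mcl1 over Bcl2l1 at 3.049 in CPM, against 2.262 in TPM. The ratio of guardians to effectors, -0.88 in log2, reversed to 0.721 in CPM and to 1.328 without Bax, and moved to -1.90 and -2.11 as a difference of median log2(TPM + 1) and log2(TPM + 0.1) and to -3.41 without Mcl1. The ratio of guardians to BH3-only genes, 0.543, reversed to -1.987 without Mcl1 and moved to 1.103 in CPM, 0.844 and 1.137 as differences of those medians, 0.778 for activators, 3.279 for sensitizers and 1.844 without Bid. A single length per gene leaves a mean log ratio nearly fixed by construction, so it does not test the length estimates, though its settings count among the 37. The count of expressed members without short genes also could not fall, since that scaling only raises TPM, and it too is among the 37. Within a library CPM differs from TPM by length scaling; for the medians the cause was not tested. Without each replicate in turn these ratios ran from -0.993 to -0.797 and from 0.498 to 0.606, Mcl1 over Bcl2l1 from 2.22 to 2.32 and Bax over Bak1 from 1.68 to 1.98. At a mean TPM of at least 5, 4 members counted as expressed in place of 9; pathway genes expressed went from 39 to 43 without short genes. Members called variable stayed at 0 in all 6 alternatives, and genes called among all tested, 232, fell to between 63 and 93 without 1 replicate, where fewer values can vary, and were 231 with DESeq2 size factors. Depth limits Bcl2 (1 to 5 counts), whose values cannot be ordered between replicates. No paired analysis was possible because the RNA-seq replicates form a single group, and no second group was read whose numbers could be matched to theirs.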
